A study of Mus musculus with 10 samples.

Results

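Described here is the baseline transcriptome of the wild-type (WT) whole brain at postnatal day 3 (P3), in 5 of the 10 libraries of the series. Each library came from 1 male mouse of the C57BL/6N strain. They were chosen by the genotype label WT, and the values of the Arid1b heterozygous group were not used. Both groups were deposited together, so the size factors and the choice of genes with a row may depend on both. Per the study's methods the pups came from crosses of Arid1b+/- males with WT C57BL/6N females, so the WT mice carried no edited Arid1b allele, and the dams reared mixed litters. The labels give neither the litter nor the processing batch of a mouse, so these cannot be told apart from differences between mice. No group was compared, so no p-value is given, and every error is the SD over the 5 mice.

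The mouse brain at P3 is still being built. Outside the cerebellum and the olfactory bulb most neurons have been born and are extending axons and dendrites, excitatory synapses are beginning to form, glial precursors are dividing, and myelin is only starting in the hindbrain. Polyadenylated RNA of the whole organ therefore holds transcripts of the growing cytoskeleton, of early forms of ion channels and receptors, and of many cell types at once. In such bulk RNA fewer cells of a type and less RNA per cell cannot be told apart.

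The table held 18444 genes, and 18431 of them matched the GENCODE M21 annotation of the GRCm38 genome. Each value was a normalised read count, that is, estimated reads divided by a size factor of the library, and the library totals lay between 28.2 M and 28.5 M. The step between small values put 1 read at 0.945 to 1.13 normalised counts, or 25.1 to 29.9 M estimated reads per library, fewest in WT4. In all, 18295 genes were above 0 in every library, and 8 were listed at 0 in all 5. Pearson correlations between libraries across 17009 genes with a mean of at least 10 lay between 0.985 and 0.988 on the log2 scale, and no library held the values of another. Deviations from the gene mean followed transcript length and GC content weakly across genes. Spearman's rho with length ran from -0.16 in WT5 and -0.14 in WT2 to 0.13 in WT4 and 0.18 in WT3, and rho with GC content from -0.12 in WT4 to 0.086 in WT1. Genes are not independent replicates, and these values are descriptions of the libraries.

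The labels were checked against marker genes. All 4 Y-linked genes of the list were present in every mouse, as in males, with 1661, 1713, 1518, 1823 and 1556 normalised counts of Eif2s3y, which encodes a translation initiation factor subunit, in WT1 to WT5. Arid1b, which encodes a DNA-binding subunit of the BAF chromatin remodelling complex and is the gene edited in the other group, had 3386, 3155, 3597, 3429 and 3108 normalised counts. These values varied by 6.08% of their mean (coefficient of variation, CV), and no mouse stood apart. Tbr1 of the cerebral cortex, Tcf7l2 of the thalamus, Zic1 of the cerebellum, Slc18a2 of monoamine neurons and Hoxb3 of the hindbrain and spinal cord were present in every library.

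Mitochondrial transcripts led the ranking, and much of what the table assigned to nuclear genes at the top was the same sequence. The nuclear genome of the mouse carries an insertion of mitochondrial DNA on chromosome 1, annotated as pseudogenes. Gm28661, the copy of the cytochrome c oxidase subunit gene mt-Co2, is shown here with the start of mt-Co2, because reads within these bases cannot be assigned to either gene by sequence. The first 90 bases, from GENCODE M21 transcripts, span chrM:7013-7102 on the plus strand and chr1:24615476-24615565 on the minus strand of GRCm38.
mt-Co2: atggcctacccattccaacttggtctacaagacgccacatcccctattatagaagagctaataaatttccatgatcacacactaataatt
Gm28661: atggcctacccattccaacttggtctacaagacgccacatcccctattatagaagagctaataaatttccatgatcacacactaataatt
Over all 681 aligned bases the sequences had 0 differences. The same held for mt-Atp6 and Gm10925 over 678 bases, mt-Co3 and Gm28437 over 783, mt-Nd3 and Gm28438 over 342, and mt-Nd4l and Gm10222 over 294. The copy of mt-Co1, Gm29216, is 492 bases long, and 483 of them aligned, to the last 483 bases of that gene. The alignment was local and left out the first bases of the copy, which are not counted as differences. The aligned part starts at base 1063 of mt-Co1, and within it the sequences differed at 1 position close to that start, A1066T. The position is counted from the first base of mt-Co1 and given as the mitochondrial base, the position and the nuclear base. The difference is in capitals in the following stretches of 60 bases, at chrM:6390-6449 on the plus strand and chr1:24616129-24616188 on the minus strand.
mt-Co1: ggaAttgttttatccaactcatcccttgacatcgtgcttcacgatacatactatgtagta
Gm29216: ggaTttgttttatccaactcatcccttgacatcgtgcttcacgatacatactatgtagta

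For mt-Co2 the split of reads between the identical sequences varied more between mice than their sum. mt-Co2 had 58948, 42357, 25514, 26680 and 35384 normalised counts in WT1 to WT5, and Gm28661 had 92122, 114240, 124252, 126009 and 140399. The nuclear copy thus took 61.0% of the pair in WT1 and 83.0% in WT3, with a mean of 75.9% ± 9.2 (SD, n = 5). The sum of the pair was 151070, 156596, 149766, 152689 and 175783, with a CV of 6.81% against 36.2% for mt-Co2 alone. The copies took 91.4% ± 0.94 of the mt-Atp6 pair, 81.4% ± 4.7 of the mt-Co3 pair and 92.7% ± 1.9 of the mt-Nd3 pair, but 15.8% ± 9.5 of the mt-Nd4l pair, where Gm10222 was listed at 0 in WT2. Values of these single genes are therefore uncertain, and only the sums are read here.

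**Figure D1:**
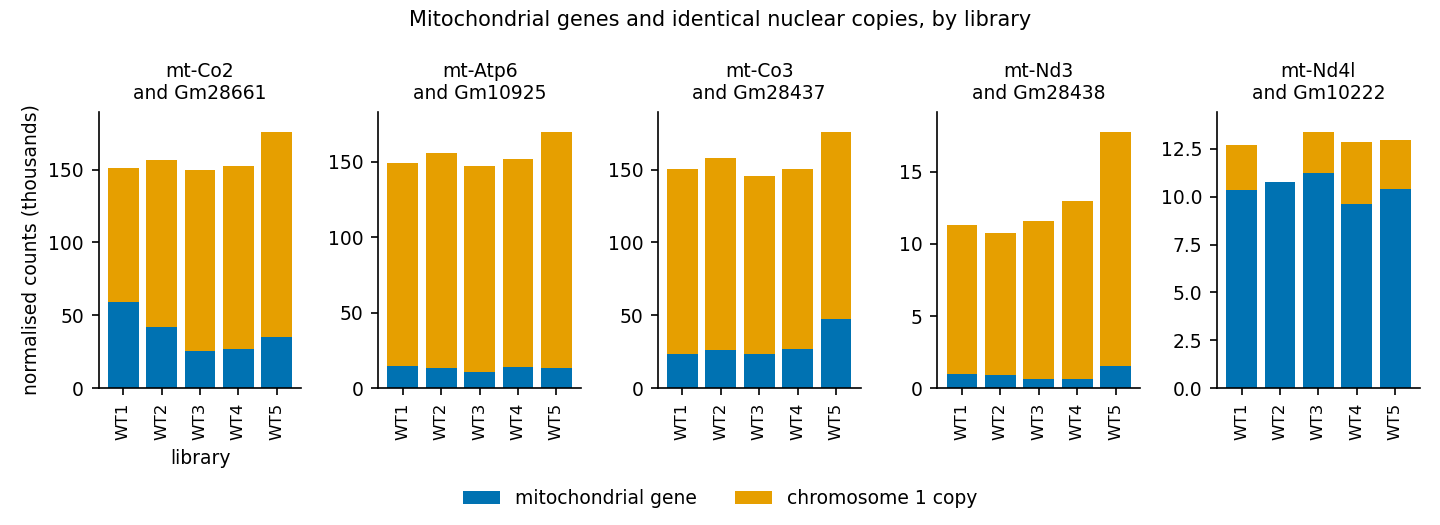
Normalised counts (in units of 1000, y axis of each panel from 0) of 5 mitochondrial genes (blue) and their sequence-identical chromosome 1 copies (orange), stacked for each of the 5 WT libraries. For mt-Co2 the boundary between the colours moves from 58948 in WT1 to 25514 in WT3, while the bar height stays between 149766 and 175783.

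The 15 genes of the mitochondrial genome held 4.07% ± 0.17 of the normalised counts (SD, n = 5), and with the 6 chromosome 1 copies 5.57% ± 0.26. mt-Co1, a core subunit of cytochrome c oxidase, was the highest gene of the table on both scales, with 363703 to 405753 normalised counts. Per length it reached 14482 ± 537 parts per 1000000 (ppm) of the length-adjusted total of the library. Among the mitochondrial protein genes without an identical copy mt-Nd1 of complex I and mt-Cytb of complex III came next, at 8605 ± 233 and 8585 ± 254.9 ppm, which differ by less than their spread. The lowest of these genes was mt-Nd6, the only protein gene of the light strand, with 774 to 1164 normalised counts. It reached 110 ± 20.5 ppm, against 5920 ± 151 for mt-Nd4 of complex I. The sums of the pairs with a nuclear copy were all highest in WT5 except that of mt-Nd4l, which was highest in WT3. Of the 13 mitochondrial protein genes 9 were highest in WT5, against 23.2% of the 17009 genes tested. This count includes mt-Co3 and mt-Nd3, whose single values are uncertain because of their identical copies.

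Levels of other genes were compared per length, as the normalised count per kilobase of the median annotated transcript, in ppm of the library total. On this scale the 10 highest genes held 9.53% ± 0.28 of the total and 687 ± 17.2 genes held 50%. Between 14830 and 15016 genes reached 1 ppm in a library, between 1975 and 1996 reached 100 ppm, and 82 or 83 reached 1000 ppm. The choice of transcript length mattered at the top: of the 20 highest nuclear genes 10 stayed among the 20 highest with the longest transcript and with merged exons as well. Of these 10, 4 were chromosome 1 copies of mitochondrial genes. The other 6 were Tuba1a, Eef1a1, Actg1, Actb, Stmn1 and Tubb2b.

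These 6 genes encode the cytoskeleton of growing cells and the machinery of translation. Tuba1a, the main alpha-tubulin of newly formed neurons, had 230596, 261318, 227071, 240362 and 251429 normalised counts in WT1 to WT5, or 8033 ± 414 ppm. Because 77.0% of its 31-base words also occur in other genes, its value cannot be fully separated from those of other alpha-tubulins. Eef1a1, the elongation factor that brings transfer RNA to the ribosome, reached 6973 ± 345 ppm, with 96976 to 97833 normalised counts in WT1 to WT4 and 111091 in WT5. The cytoplasmic actins Actg1 and Actb reached 4514 ± 167 and 3332 ± 113 ppm. Stmn1, which destabilises microtubules, reached 2909 ± 121 ppm, and the beta-tubulin Tubb2b 2534 ± 51.8 ppm. Mapt, the microtubule-associated protein tau, had the tightest values of the 20, with 64833, 64647, 64984, 65765 and 64045 normalised counts and a CV of 0.958%. Ywhaz, Eif4g2, Gng2, Crmp1, Hsp90aa1 and Sdc3, with Mapt, Meg3 and Rian, were among the 20 only with the median transcript length. Hsp90ab1, a cytosolic chaperone, was among the 20 with the median transcript and with merged exons, but not with the longest transcript.

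**Figure D2:**
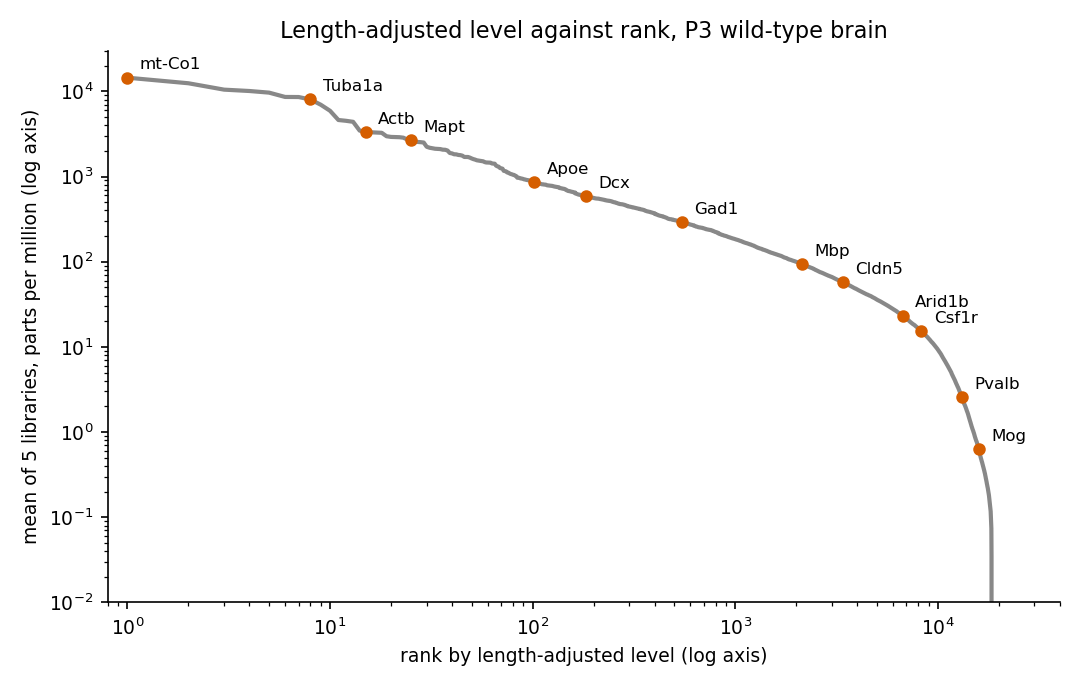
Mean length-adjusted level over the 5 WT libraries (ppm, log axis) against rank (log axis) for all matched genes, with named genes in orange. mt-Co1 is at 14482 ppm, Arid1b at 23.2 ppm and the myelin gene Mog at 0.625 ppm.

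By annotated class, 15475 protein-coding genes held 96.2% ± 0.064 of the normalised counts, 1698 long noncoding genes 1.62% ± 0.060 and 416 pseudogenes 1.80% ± 0.10, most of which lay in the chromosome 1 copies at 1.498% ± 0.10. Genes of the X chromosome held 3.39% ± 0.032 and the 10 genes of the Y chromosome 0.0285% ± 0.0048. With the median transcript length the highest noncoding genes were Meg3 and Rian, maternally expressed transcripts of the imprinted Dlk1 region, followed by Miat and Malat1, which stay in the nucleus. By count 2900097C17Rik, with a mean of 26478, lay above Miat with 26062 and Malat1 with 20925. Meg3 had 142220, 123984, 142184, 137259 and 126963 normalised counts, lower in WT2 and WT5 than in the other mice, and Rian had 37300 to 39661. Per length Meg3 reached 10104 ± 742 ppm with the median transcript but 944 ppm with the longest, so its place among coding genes is not settled here. Malat1 was more variable, with 27287, 15806, 22385, 21536 and 17612 normalised counts and a CV of 21.4%, highest in WT1 and lowest in WT2.

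Among protein families the 80 cytosolic ribosomal protein genes held 3.32% ± 0.13 of the length-adjusted total, the 82 nuclear genes of oxidative phosphorylation 1.40% ± 0.044, the 19 tubulins 1.88% ± 0.065 and the 15 genes of glycolysis 0.904% ± 0.018. Ribosomal proteins moved together between mice by small amounts. In WT5 52 of the 80 were highest, against 23.2% of all genes, and in WT3 49 were lowest, against 19.2%. The mean deviation of the list from the gene means was nevertheless only 0.09 in WT5 and -0.08 in WT3 on the log2 scale. WT5 and WT3 were also the libraries with the lowest and highest rho with transcript length, and the part of that trend in the counts was not tested. Of the glycolysis genes 8 of 15 were highest in WT5 and 9 were lowest in WT4, against 19.2% of all genes, with a mean deviation of 0.05 and -0.05. Gapdh, the glycolytic enzyme often used as a reference gene, led the list at 1826 ± 80.2 ppm and had 32791, 34066, 31512, 30929.9 and 35297 normalised counts. The lowest member was Pfkl, a phosphofructokinase, at 68.9 ± 2.23 ppm.

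The pan-neuronal and immature neuron lists had the highest summed levels and the lowest CVs of the cell type lists. The 12 pan-neuronal genes summed to 7535 ± 68.7 ppm, a CV of 0.912%, with all 5 mice between 7473 and 7635. Tubb3, the neuronal beta-tubulin, led with 2152 ± 72.1 ppm, followed by the dendritic microtubule protein Map2 with 1459 ± 55.5 and the growth-associated stathmin Stmn2 with 1260 ± 27.4, and the RNA-binding protein gene Elavl4 was lowest with 71.1 ± 3.07. The 8 markers of immature neurons summed to 5551 ± 71.1 ppm, led by Tubb2b and the collapsin response protein gene Dpysl3 with 2180 ± 49.5. Dcx, which encodes the doublecortin of migrating neurons, had 33764, 33030, 37162, 37717 and 34680 normalised counts. The lowest of this list was Nhlh1, a transcription factor of newborn neurons, with 130.5, 62.9, 109, 86.6 and 52.0.

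Excitatory and inhibitory markers had sums near each other, but from lists of unlike length. The 8 glutamatergic genes summed to 828 ± 20.6 ppm and the 12 GABAergic genes to 915 ± 26.1. These sums were 969 and 985 ppm with the longest transcript, and 938 and 1083 ppm with merged exons. The GABAergic sum was higher each time, but the gap moved with the length choice. The median member had 72.7 ppm in the glutamatergic and 30.6 ppm in the GABAergic list, so the sums depend on which genes were listed. Camk2a, the kinase of excitatory synapses, reached 272 ± 20.02 ppm, the cortical transcription factor Neurod6 132 ± 10.6 and the transporter Slc17a7 98.2 ± 7.50. Gad1, which makes GABA, reached 292 ± 7.26 ppm, the neuropeptide Sst 201 ± 11.4 and the interneuron transcription factor Dlx1 159 ± 16.9. Pvalb and Vip, which mark interneuron classes, were low with 33.4 to 49.4 and 39.1 to 63.3 normalised counts. Vamp2, the vesicle fusion protein, led the 12 presynaptic genes at 686 ± 21.2 ppm, and their sum had a CV of 2.66%. The 12 postsynaptic genes summed to 1724 ± 75.3 ppm, led by the scaffold gene Dlg4, and 8 of them were highest in WT3, against 19.9% of all genes. WT3 was also the library with the highest rho with transcript length, and the part of that trend in this count was not tested.

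Pairs of a gene listed as immature and a gene listed as mature were compared next. Of 13 pairs considered here, 12 had both genes, since the embryonic globin gene Hbb-y has no row in the table analysed here. In each pair the same gene was higher in 5 of 5 mice: the immature gene in 8 pairs and the mature gene in 4. For 11 pairs the direction was also the same with the longest transcript and with merged exons.

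The early forms led among several channels and receptors. Grin2b, the NMDA receptor subunit of young synapses, had 19077, 13657, 18365, 17630 and 14140 normalised counts, and its mature partner Grin2a had 752, 750, 933, 839 and 671. The log2 ratio per length was 6.05 ± 0.18 (SD, n = 5), and 3.67 with the longest transcript. Glra2, the fetal glycine receptor subunit, exceeded Glra1, the adult subunit of hindbrain and spinal cord, by 5.75 ± 0.86 on the log2 scale, where Glra1 had 48.3, 12.5, 50.2, 27.5 and 34.7 normalised counts and was lowest in WT2. The sodium channel gene Scn3a exceeded Scn1a by 1.296 ± 0.097. Among structural genes Dcx exceeded Rbfox3, the mature nuclear marker NeuN, by 2.30 ± 0.12, Nefm exceeded the late neurofilament Nefh by 2.88 ± 0.15, and Tubb2b exceeded Tubb4a by 3.17 ± 0.053. In glia Vim exceeded Gfap, its successor in astrocytes, by 1.42 ± 0.21, or by 0.71 with the longest transcript and 0.69 with merged exons. Pdgfra of precursors exceeded Mog, a late myelin gene, by 6.87 ± 0.67, with Mog at only 6.00 to 16.8 normalised counts.

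In the other 4 pairs the mature gene was higher. Slc12a5, the potassium and chloride exporter KCC2 that makes GABA inhibitory, had 8478, 8215, 8617, 8125 and 8640 normalised counts, and the importer Slc12a2 (NKCC1) had 1660, 1722, 1799, 1974 and 1819. Their log2 ratio, importer over exporter, was -2.72 ± 0.11 and lay between -2.78 and -2.34 with the other lengths. Slc12a2 is also made by glia and choroid plexus, so the ratio is that of the whole tissue and not of neurons. Actl6b, the neuronal actin-like subunit of the BAF complex, had 2955, 2782, 2491, 2961 and 2970 normalised counts against 509, 481, 500.95, 448 and 401 for Actl6a of dividing progenitors, and the log2 ratio Actl6a over Actl6b was -3.46 ± 0.22, but -1.97 with the longest transcript and -2.46 with merged exons. The scaffold Dlg4 (PSD-95) exceeded Dlg3 (SAP102) with a log2 ratio of -4.25 ± 0.043, which shrank to -0.67 with merged exons. Slc17a6 over Slc17a7, the vesicular glutamate transporters VGLUT2 and VGLUT1, was -0.68 ± 0.13 but 0.11 with merged exons, and no direction is read for that pair.

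**Figure D3:**
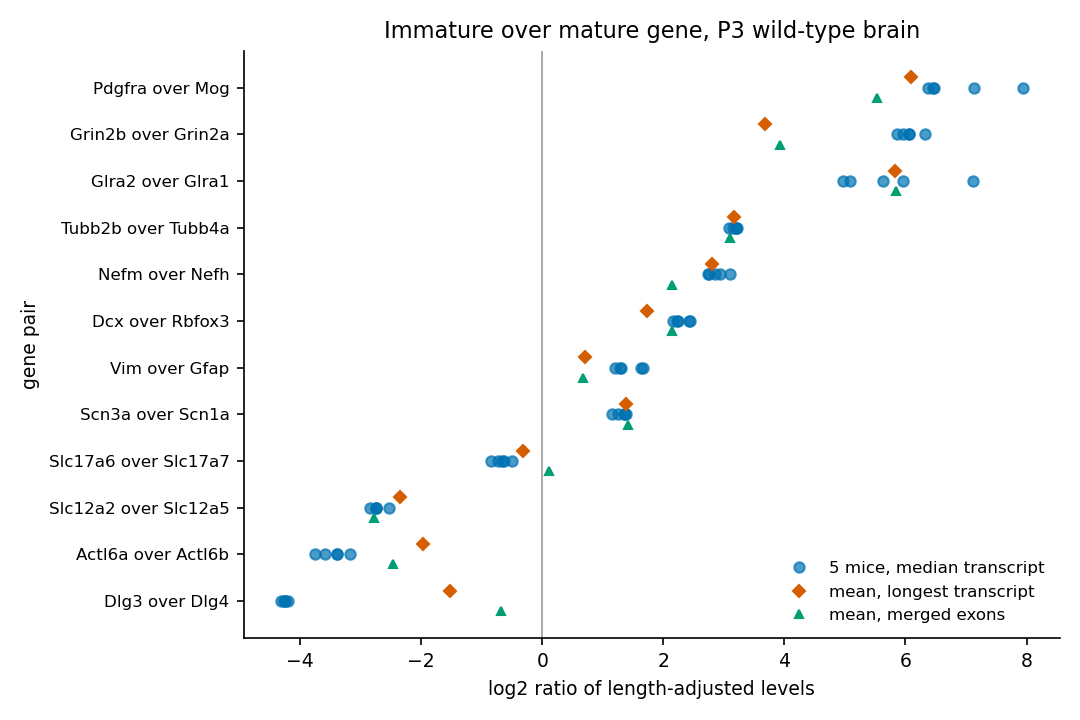
Log2 ratio of length-adjusted levels, immature gene over mature gene, for 12 pairs: blue points are the 5 WT mice with the median transcript length, orange diamonds and green triangles the mean with the longest transcript and with merged exons. The 5 points of each pair lie on the same side of 0, and the marks of Slc17a6 over Slc17a7 lie on both sides.

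Progenitor, proliferation and glial genes were all detected. Among the 9 markers of progenitors and radial glia the fatty acid binding protein gene Fabp7 reached 1087 ± 53.2 ppm, and the neurogenic factor Eomes was lowest with 6.47 ± 1.58. The 11 genes of proliferating cells summed to 196 ± 21.2 ppm. Mki67, the Ki-67 antigen of cycling cells, had 2057, 1592, 2145, 1903 and 1404 normalised counts. Of the 11 genes 5 were highest in WT1, against 17% of all genes, and 8 were lowest in WT5, against 23.3%, and the list's mean deviation there was -0.30 on the log2 scale. The replication clamp gene Pcna varied little, with 1637 to 1708 normalised counts.

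WT5 was also low for astrocytes and oligodendrocyte precursors. The 11 astrocyte markers summed to 3667 ± 245 ppm, led by the lipid carrier Apoe with 860 ± 73.2 and glutamine synthetase, Glul, with 782 ± 17.7, and S100b was lowest with 11.4 ± 1.74. Of the 11, 7 were lowest in WT5, against 23.3% of all genes. The water channel gene Aqp4, named after its values were seen, had 3266, 3128, 3014, 3456 and 2131 normalised counts, lowest in WT5. Of 6 precursor markers 5 were lowest in WT5, against the same 23.3%. Pdgfra, the growth factor receptor of these cells, had 3294, 3626, 3413, 3468 and 2802 normalised counts, and the proteoglycan gene Cspg4 had 809, 817, 854, 820 and 625. Without WT5 the CV of the summed level fell to 3.33% from 6.67% for astrocytes and to 2.58% from 6.96% for precursors.

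Microglial, mural and endothelial markers were low in abundance, and the first varied most. The 10 microglial genes summed to 97.9 ± 20.02 ppm. Csf1r, the receptor these cells need to survive, had 468, 915, 508, 677 and 403 normalised counts. WT2 and WT4 were the high mice and WT5 the low mouse for most of the list. Of the 10 genes 6 were highest in WT2, against 21.2% of all genes, and 3 in WT4, against 18.7%. In WT5 8 were lowest, against 23.3%. Aif1, the lowest member, had 46.8, 40.5, 46.2, 48.1 and 22.3. The 8 endothelial genes summed to 159 ± 6.71 ppm with a CV of 4.22%, led by the tight junction gene Cldn5 with 57.5 ± 2.39 ppm. Of the 6 mural genes 5 were lowest in WT5, against 23.3% of all genes, and 4 highest in WT2, against 21.2%. The pericyte gene Rgs5 had 3028, 3196, 2711, 2831 and 2382 normalised counts.

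Myelin genes were low in 1 mouse. The 8 genes of myelinating oligodendrocytes summed to 193 ± 40.4 ppm and all 8 were lowest in WT2, against 20.2% of all genes. Mbp, a main protein of compact myelin, had 3549, 1921, 3595, 2792 and 3273 normalised counts. Mobp, another myelin protein gene, had 231, 47.0, 229, 196 and 205. Cnp, an enzyme of the same cells, differed less, with 1331 in WT2 and 1366 to 1601 elsewhere. The list's mean deviation in WT2 was -0.64 on the log2 scale and -0.65 with the length and GC trends removed, and the CV of the summed level was 9.22% without WT2 against 20.98% with it.

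WT2 was also the low mouse for most Hox genes of the hindbrain and spinal cord. The Hox genes mark positions along the hindbrain and cord and are silent in the forebrain. Of 12 listed Hox genes 10 had a row, and 9 had a mean of at least 10. Of these 9, 8 were lowest in WT2, against 20.2% of all genes, and the ninth, Hoxb8, was listed at 0 in both WT1 and WT2. Hoxa5 had 33.7, 4.499, 133, 247 and 113 normalised counts, Hoxb5 had 55.1, 5.47, 110, 209 and 177, and Hoxb3 had 98.4, 17.7, 107, 129 and 159. Hoxd3 had 74.8, 3.77, 121, 55.5 and 93.4, and Hoxc4 had 38.04, 7.25, 63.2, 78.2 and 58.8. WT1 was next to lowest for Hoxa5, Hoxb3, Hoxb5 and Hoxc4, and WT4 was highest for 5 of the 9, against 18.7% of all genes.

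The summed level of the Hox list ran from 1.69 ppm in WT2 to 29.0 ppm in WT4. Its CV was 62.1%, and 34.2% without WT2. Hoxb8, the most caudal gene of the list, had 42.1, 73.0 and 13.01 normalised counts in WT3, WT4 and WT5. Hoxa2 had 37.0, 6.23, 26.1, 24.9 and 54.3, Hoxb2 had 23.0, 8.12, 19.6, 23.9 and 23.4, and Hoxb4 and Hoxd4 were listed at 0 in WT2 and lay between 7.01 and 26.1 elsewhere. Slc6a5, the glycine transporter of inhibitory neurons in hindbrain and cord, was no member of the list and had 650, 106, 602, 458 and 456. WT2 was thus the low mouse for Slc6a5, for Glra1 and for most Hox genes. The monoamine neuron list includes genes of hindbrain neurons and of neurons elsewhere. Of its 8 members 0 were lowest in WT2, against 20.2% of all genes, and with so few members this count lies near that share. The summed level of this list was 41.1 ppm in WT2 and 38.3 to 40.8 ppm in the other mice. How much hindbrain or cord each sample held is not in the labels, and its part was not tested.

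Cerebellar genes were lower in WT2 and WT5. The 8 genes with a row summed to 196 ± 24.3 ppm, and Gabra6 has no row in the table analysed here. Zic1, a transcription factor of granule cell precursors and other neurons, had 4829, 4140, 4842, 4249 and 3771 normalised counts. Atoh1, which marks dividing granule precursors, had 37.0, 14.6, 44.1, 33.5 and 11.5, lowest in WT5 and next to lowest in WT2. In WT3 6 of the 8 were highest, against 19.9% of all genes, but only 3 were when each library was divided by its total. In WT2 5 of the 8 were lowest, against 20.2%. Pcp2 of Purkinje cells, named after its values were seen, had 106, 22.6, 108, 71.5 and 55.8.

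The lists of the cerebral cortex, striatum, thalamus and monoamine neurons varied less between mice than the cerebellar list, whose CV was 12.4%. The CV of the summed level was 4.99% for the cerebral cortex, 3.42% for the striatum, 3.04% for the thalamus and 3.30% for monoamine neurons. Tbr1, a transcription factor of deep-layer cortical neurons, had 2695, 2935, 2911, 2923 and 3281 normalised counts. Tcf7l2, a Wnt effector abundant in thalamic neurons, had 3889 to 4445. Penk, the enkephalin precursor of striatal projection neurons, had 910 to 1065, and the dopamine receptor gene Drd1 had 360, 372, 366, 350 and 282. Slc18a2, the vesicular monoamine transporter, had 682 to 754. The olfactory bulb list varied more, with a CV of 20.6% and 4 of 6 genes highest in WT3, against 19.9% of all genes. Cdhr1, a cadherin of mitral cells, had 656, 856, 1310, 696 and 962, and Omp of olfactory sensory neurons was at 7.86 to 14.4.

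Genes of structures next to the brain varied widely between mice. Gh, growth hormone of the pituitary, had 1476 normalised counts in WT2 and 838 in WT5 and was listed at 0 in WT1, WT3 and WT4. Tshb, the thyrotropin subunit, had 0.150, 98.2, 0.165, 2.33 and 5.20, and Cga, the shared subunit of pituitary hormones, had 2.81, 86.1, 0, 1.1403 and 13.4. Prl, Pou1f1 and Lhb of the same list have no row in the table analysed here. Pomc, the precursor of corticotropin in the pituitary and of melanocortins in the hypothalamus, had 17.1, 865, 15.8, 20.4 and 27.2. All 3 pituitary genes of the list with a row were highest in WT2, against 21.2% of all genes.

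Pomc is also a member of the hypothalamus list. The summed level of that list was 100 ppm in WT2 and 40.8 to 45.7 ppm in the other mice, and its CV fell from 45.9% to 5.00% without WT2. Of the other members Avp and Pmch were highest in WT2 too, but by less. Avp, the vasopressin precursor, had 108, 111, 71.9, 84.1 and 108 normalised counts, Trh had 108 to 138, Gal 59.4 to 74.8 and Nkx2-1, which specifies the ventral hypothalamus, 171 to 213. Pmch, the precursor of melanin-concentrating hormone, had 117, 171, 124, 134 and 89.2. Otp and Sim1, which specify neuroendocrine neurons, had 188 to 264 and 60.7 to 90.2, while Oxt and Hcrt stayed at or below 12.98.

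Type I collagen was high in WT3. Col1a1, the main chain of type I collagen in meninges and bone, had 2548, 5249, 17074, 2506 and 2012 normalised counts, and its partner chain Col1a2 had 3141, 5159, 12174, 3658 and 2836. WT3 was highest and WT2 second for both genes. Other fibroblast genes had another order. Col3a1 had 2645, 3686, 3508, 2776 and 2061, Dcn had 610, 858, 764, 629 and 558, and Igf2 had 7138, 8086, 6997, 7344 and 6111, each highest in WT2. Lum, a collagen-binding proteoglycan, had 163, 176, 297, 137 and 141 and followed type I collagen. Spp1, osteopontin of bone and reactive cells, had 292, 539, 898, 575 and 258 and was likewise highest in WT3. Of the 7 meningeal and fibroblast genes 5 were lowest in WT5, against 23.3% of all genes.

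Skeletal muscle genes were low, with the myosin gene Myh8 at 53.9, 42.7, 144, 61.1 and 58.6 normalised counts and the creatine kinase gene Ckm at 2.30, 17.7, 34.3, 0 and 14.0. Both were highest in WT3. Crx, a transcription factor of photoreceptors, was close to the detection limit at 1.71 to 15.2, and Rax, Pde6b and Rcvrn have no row in the table analysed here. The choroid plexus was well represented by Ttr, the thyroxine carrier it secretes, with 9711, 11505, 9509, 12998 and 12180.3 normalised counts, highest in WT4 like 5 of the 8 genes of its list, against 18.7% of all genes. The 6 ependymal genes were led by the cilia regulator Foxj1 with 10.9 ± 0.978 ppm. Of these 6, 3 were highest in WT4, against 18.7% of all genes, and 3 in WT2, against 21.2%.

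Globin transcripts separated WT5 from WT4. Hba-a1 and Hba-a2 encode alpha-globin and share most of their sequence, as do the beta-globin genes Hbb-bs and Hbb-bt, so the members of each pair are best read as sums. The alpha-globin sum was 4476, 3966, 3071, 2483 and 7662 normalised counts, and the beta-globin sum was 3431, 3080, 2290, 1981 and 5917. Alas2, the first enzyme of haem synthesis in red cells, had 117, 143, 84.0, 55.3 and 234, and the anion exchanger Slc4a1 had 12.3, 16.1, 14.5, 3.34 and 62.1. Of the 6 genes with a mean of at least 10, all 6 were highest in WT5 and all 6 lowest in WT4, against 23.2% and 19.2% of all genes. The list's mean deviation was 1.16 in WT5 and -0.94 in WT4 on the log2 scale, and 1.1398 in WT5 with the length and GC trends removed. Adm, an adrenomedullin gene that responds to hypoxia, was also highest in WT5, with 24.9, 23.0, 20.3, 17.5 and 48.1, while Vegfa had 1540 to 1652 in WT1 to WT4 and 1901 in WT5.

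**Figure D4:**
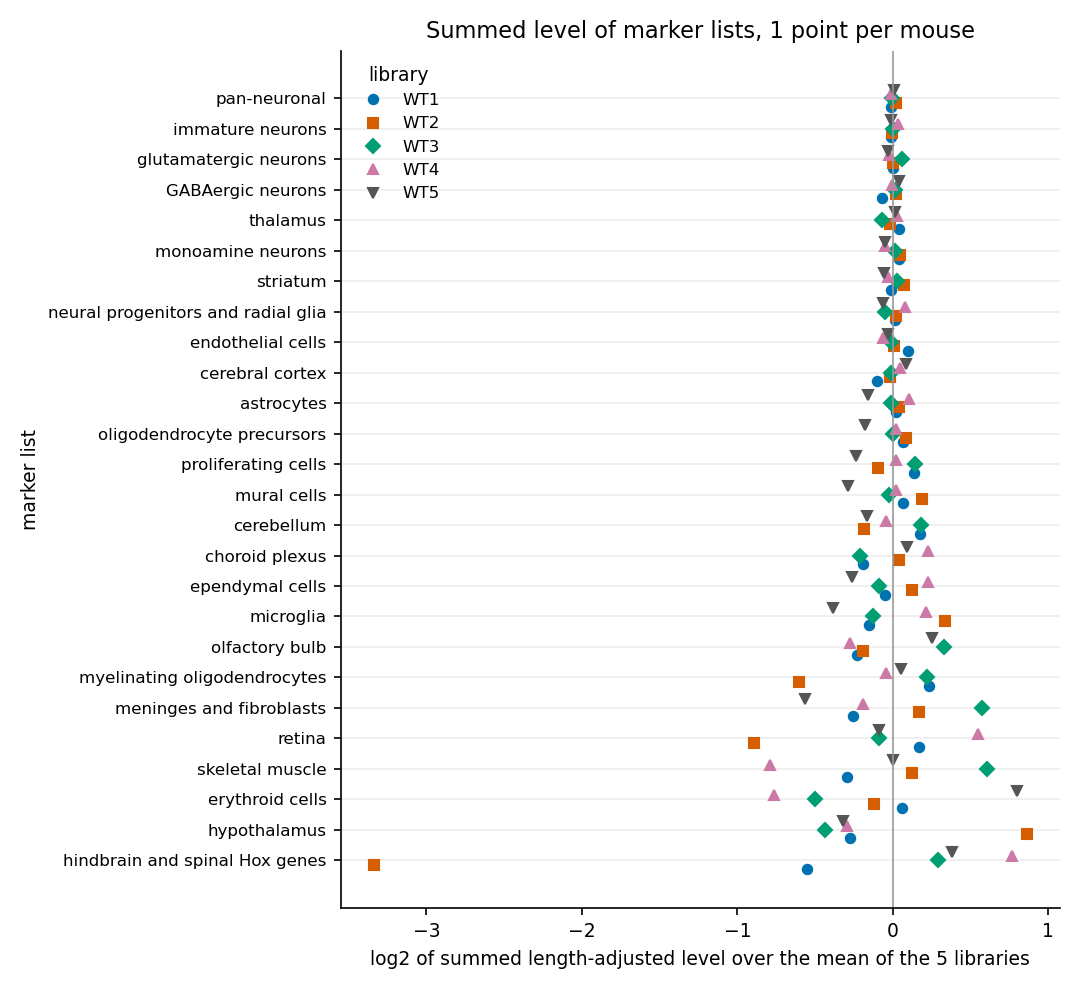
Log2 of the summed length-adjusted level of each marker list over its mean (x axis), 1 mark per WT library, with lists ordered by CV from 0.912% for the pan-neuronal list at the top to 62.1% for the Hox list at the bottom. The pituitary list, with a CV of 149%, is off the scale and not drawn. The neuronal lists lie close to 0, and WT2 stands far to the left for the Hox list and to the right for the hypothalamus list.

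Across the 27 cell type and region lists the CV of the summed level was above 20% in 10, and in 7 when WT2 was left out. The immediate early genes, which respond to neuronal activity and handling, had a CV of 7.72%. Fos had 232, 282, 209, 220.5 and 163 normalised counts and Egr1 had 884, 1206, 956, 920 and 779, both highest in WT2 and lowest in WT5, and 6 of the 12 were highest in WT2, against 21.2% of all genes. Nr4a1 had 513, 642, 476, 506 and 490. The 18 imprinted genes, led by Meg3, Rian and the small membrane protein gene Nnat with 2121 ± 145 ppm, had a CV of 3.75%.

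Gene-wise spread fell with abundance. The SD of log2(count + 1) over the 5 mice had a median of 0.12 over the 17009 genes with a mean of at least 10, and the median CV was 8.40%. The median SD was 0.47 for means of 10 to 30, 0.17 for 100 to 300 and 0.059 from 10000 upwards. The median CV of 33.0% in the lowest of these classes lay above the 24.5% that counting reads alone gives. In that class 77.0% of the genes exceeded their counting error. The 4.11% of the highest class lay further above its counting error of 0.817%. For 12.7% of the 17009 genes the CV was below the counting error. An SD over 0.5 was found in 1280 genes, 7.53% of those tested, but in only 98 of the 12845 genes with a mean of at least 100. An SD over 1 was found in 203 and 16 genes respectively. Of the 98, 35 were lowest in WT5, against 23.3% of all genes, and 25 in WT2, against 20.2%. In WT4 26 were highest, against 18.7%, and in WT1 21, against 17%, and the counts for WT2 and WT1 lie near these shares.

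**Figure D5:**
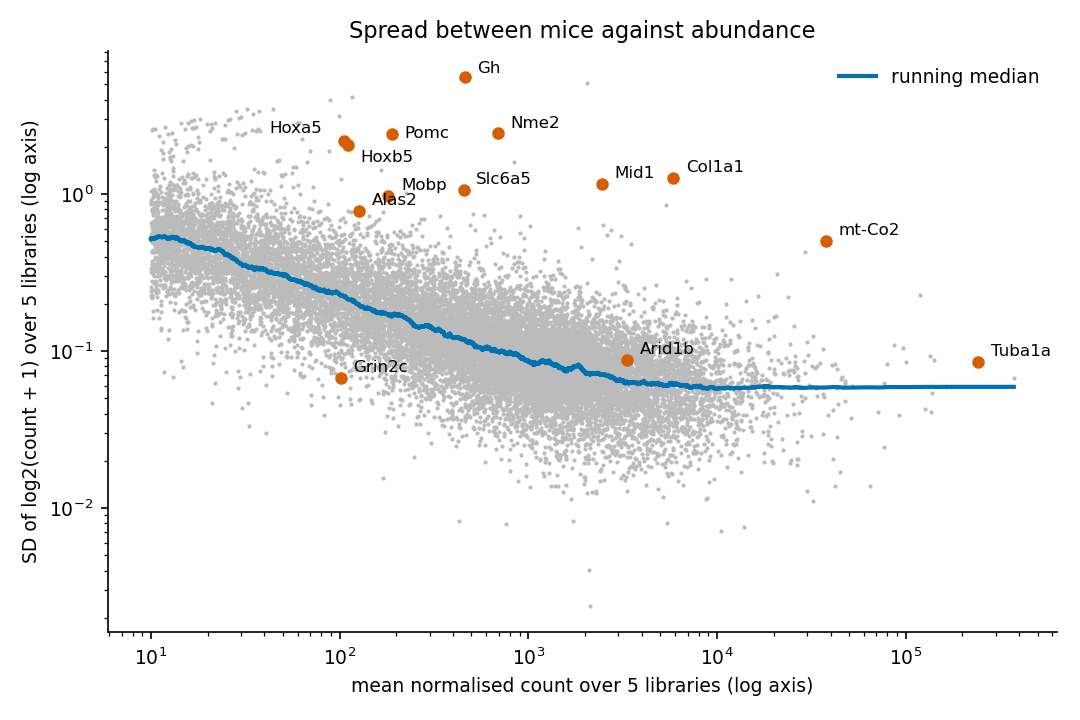
SD of log2(count + 1) over the 5 WT libraries against the mean normalised count (both log axes) for genes with a mean of at least 10, with the running median in blue and named genes in orange. Gh lies far above the line at an SD of 5.55, Pomc at 2.43, and Tuba1a and Arid1b lie close to it at 0.085 and 0.088.

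Genes were ranked by the excess of their SD over the running median of genes of like mean, among those with a mean of at least 100. The 25th gene, Alas2, had an excess of 0.58 and the 26th, Kirrel2, of 0.57, so the boundary marks no gap. Of the 25, 9 shared over 50% of their 31-base words with other genes, against 3.01% of the 12845 genes ranked. Among the genes ranked, an SD over 0.5 was found in 0.509% of those with no shared word and in 10.6% of those with over 90% shared. Fam205a2, listed at 0 in WT4 and WT5 and at 142 to 246 elsewhere, had 100% shared words. Nme2, a nucleoside diphosphate kinase gene, had 1147, 1138, 37.9, 1070 and 64.5 normalised counts, while the overlapping readthrough gene Gm20390 and the neighbouring Nme1 carried the same sequence in part. Their sum had a CV of 13.1% against 84.7% for Nme2, and these genes are reported as uncertain.

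Of the 25, 14 shared under 20% of their words with other genes, and most of these belong to sets described above. Gh and Pomc belong to the pituitary and hypothalamus, Hoxa5, Hoxb5, Hoxb3 and Slc6a5 to hindbrain and cord, Mobp to myelin, Col1a1, Col1a2 and Spp1 to connective tissue, and Alas2 to red cells. Ccl28, a chemokine gene, had 174, 281, 274, 341 and 58.8 normalised counts, lowest in WT5. Mid1, a ubiquitin ligase gene that crosses the boundary of the pseudoautosomal region in C57BL/6 mice, had 3280, 2877, 1932, 3668 and 511, also lowest in WT5. Its 16.4% of shared words leaves most of the gene unique.

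The genes furthest below the running median had means between 100.7 and 169.8, where that median is largest among the genes ranked, so their low abundance follows from the rule. Map3k15, a kinase gene, had 103, 97.8, 102, 104 and 96.9 normalised counts, Eya4, a transcriptional coactivator, had 108 to 118, Nudt12 had 101 to 113 and Aox4, an aldehyde oxidase, 110 to 121. Grin2c, an NMDA receptor subunit that rises later in the cerebellum, had 105, 93.6, 103, 105 and 103. At a mean near 100 such agreement is closer than the counting error of genes of this mean. It follows from picking the genes furthest below the running median.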

How the data were processed

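Poly-A-selected RNA (TruSeq Stranded mRNA kit) of the whole brain was sequenced, 1 library per mouse. Per the labels and the study's methods, the authors quantified paired-end reads with Salmon with GC bias correction on GRCm38 and scaled gene estimates by DESeq2 size factors. The submitters' processing notes name Salmon 1.1.0, R 4.1.1 and DESeq2 1.30.1. The deposited table therefore holds a signal, the normalised read count. Small values scattered around multiples of 1 read, so whole reads were not recovered.

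Only the 5 WT columns were read. Symbols, lengths and positions came from GENCODE M21 (13 identifiers did not match), and sequence sharing was the percent of a gene's 31-base words found in another gene. Length-adjusted levels used the median transcript. Spread used log2(count + 1), a mean of at least 10 and a running median over genes of like mean. A list's deviation was the mean over its members of log2(count + 1) minus the gene mean. Tools were Python 3.11.15, pandas 2.3.3, statsmodels 0.14.6 and Biopython 1.88, and the scripts were tested on simulated data. The members, marker lists, pairs and rules were chosen with earlier results of these data known. Named were the 20 highest nuclear genes per length, the 10 highest by count, 5 noncoding genes per scale, mitochondrial genes, the 3 highest and the lowest member of each list (all members where the sum varied most), both genes of each pair, the 25 most and 10 least variable genes, Arid1b and Y-linked genes. The remaining names were chosen after their values were seen. Replicates were separate mice, and counting errors cover counting only. Some genes that these rules name are not reported here. No group was tested.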

Additional observations from a re-analysis of the deposited data

Results flagged for a closer look

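Each value was checked for a mouse far from the others: the distance from the extreme mouse to the next, as a share of the range of all 5 mice, had to exceed 0.71, Dixon's limit for 5 values. Chance alone gives about 1 in 20 groups. Among all 17009 genes with a mean of at least 10 the limit was passed by 1002, or 5.89%, most often through WT5 (299 genes) and WT2 (227). Of 296 values tested, 25 passed it, or 8.45%, and 22 of these were single genes. The 296 include the 25 most variable genes and all members of the lists that varied most. Their share can therefore not be set against chance or against that of all genes. The distance as a share of the range is given in parentheses.

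Through a high WT2 the limit was passed by Pomc (0.987), Tshb (0.949), Cga (0.844) and Nr4a1 (0.776), and by the summed level of the hypothalamus list (0.918), which rests on Pomc. Through a low WT2 it was passed by Mobp (0.810), Hoxb2 (0.727) and Grin2c (0.823) and by the sum of mt-Nd4l and Gm10222 (0.747). For Grin2c the low value was 93.6 normalised counts against 103 to 105 in the other mice.

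Through a high WT3 the limit was passed by Myh8 (0.818), Col1a1 (0.785), Lum (0.758) and Col1a2 (0.751). Through WT5 it was passed on the high side by Eef1a1 (0.939), mt-Co1 (0.842), mt-Co3 (0.839), Slc4a1 (0.783), Adm (0.758) and Gm29216 (0.723) and by the sum of mt-Co2 and Gm28661 (0.737). For mt-Co3 the sum with its identical copy Gm28437 did not pass it (0.598), and the value of mt-Co3 alone is uncertain. On the low side of WT5 it was passed by Cspg4 (0.807), Drd1 (0.750) and Ppp1r1b (0.731). Ppp1r1b, which encodes the phosphoprotein DARPP-32 of striatal neurons, had 1245 normalised counts in WT5 and 1304 to 1326 in the other mice.

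WT1 was low for Dlx1 (0.757), with 1696 normalised counts against 2122 to 2258. WT4 was high for the processed transcript Gm43305 (0.865), with 724 normalised counts against 201 to 272. No pair, library total or share of the 10 highest genes passed the limit.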

How the results depend on the processing

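No paired analysis was possible because only WT libraries were used and no result came from a test. Each choice was changed singly. A mean stayed close if it moved by less than its SD over the mice. Counts and medians had to stay within a set factor, and scores within a set distance. Leaving out 1 mouse cannot move a mean by its SD, so those means had to stay. Counting them, 131 of the 148 alternative values of main results stayed close and 17 moved. Of 315 for single lists, pairs and scores 248 stayed, 66 moved and 1 reversed, and these counts are no measure of robustness. The shares that follow are of the length-adjusted total, of which the mitochondrial genome held 6.09% ± 0.23 with the median transcript. With the longest transcript the 10 highest genes held 14.8% and 644.4 genes held 50%. The shares then were 10.4% for the mitochondrial genome, 3.81% for ribosomal proteins, 1.58% for nuclear oxidative phosphorylation and 2.92% for tubulins. With merged exons these were 18.5%, 497 genes, 12.998%, 3.18% (ribosomal proteins) and 3.52% (tubulins). Leaving out the mitochondrial genome gave 7.83% and 803.4 genes. Genes with an SD over 0.5 numbered 494 with a pseudocount of 10, 2282 without a filter and 98 with a mean of at least 100. Cerebellar genes highest in WT3 fell to 3 when libraries were divided by their totals. Slc17a6 over Slc17a7 reversed to 0.11 with merged exons. Leaving out each mouse in turn gave 81 to 116 genes with an SD over 0.5 and a mean of at least 100 and 7 to 10 lists with a CV over 20%. Leaving out genes with over 50% shared words, chosen after seeing the data, left 68 of the 98. The depth of 25.1 to 29.9 M reads limits genes under about 30 counts.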
